A study of Mus musculus with 19 samples.

Results

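The genes described here mark fibroblasts or their activation: *Pdgfra*, *Pdgfrb*, *Thy1*, *Dpt*, *Cd34*, *Vim*, *Fap*, *Fn1*, *Sparc* and *Postn*. They were picked by symbol from the cornea and the conjunctiva tables, and all 10 were listed in both, among 24552 genes in each. The libraries came from C57BL/6 mice by the labels, female C57BL/6 J mice by the study's methods, that either ate ad libitum (AL) or were kept on calorie restriction (CR). The cornea gave 5 AL and 5 CR libraries, and the conjunctiva gave 4 AL and 5 CR libraries. The labels were followed for these sizes, because the study states the conjunctival ones in 2 ways. Every title carries the marks 6M and 50W, and the methods state that adult mice were assigned to the diets for some months before tissue was taken. The methods also state that the corneal epithelium was scraped off, whereas the conjunctiva was cut out by surgery. The corneal libraries were so taken from a cell layer and not from the stroma beneath it.

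Fibroblasts are the mesenchymal cells that make and maintain connective tissue. In the conjunctiva they lie in the substantia propria, the loose tissue under the epithelium, and in the cornea their relatives, the keratocytes, lie in the stroma. When fibroblasts are activated they lay down more matrix, and platelet-derived growth factor (PDGF) is among the signals that make them divide. Several of the 10 genes are not private to fibroblasts: *Pdgfrb* also marks mural cells, *Thy1* T cells and nerve, *Cd34* the endothelium, *Vim* most mesenchymal and immune cells, and *Fn1* is made by epithelium as well.

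In the conjunctiva all 10 genes had a lower fitted level under CR than under AL, with a median log2 difference of −0.58, whereas the median over all 13929 genes tested there was −0.02. None of the 10 passed the test for a diet difference, which asked for an adjusted p under 0.05 and a fold over 1.5. The 3 with the smallest p were the matrix glycoprotein genes *Fn1* and *Postn* and the matrix protein gene *Dpt*, at 0.64, 0.64 and 0.63 of their AL means. In the corneal libraries the same genes were scarce except for *Fn1* and *Sparc*, they had no common direction, and none passed there either. The comparison asked how CR bears on fibroblast genes at the ocular surface, since the study set out to learn whether CR preserves the ocular surface of aging mice.

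The corneal libraries held 10354125 to 14681223 counted reads and the conjunctival ones 10726717 to 14433441. A gene at 0 could have had up to 3 reads, which came to between 2.27 and 3.37 normalized counts. Defining markers of both tissues were in place. *Krt12*, the keratin of the corneal epithelium, ran from 179846 to 340965 normalized counts in corneal libraries and from 436 to 5139 in conjunctival ones. *Muc5ac*, the goblet cell mucin, ran from 2328 to 6593 in the conjunctiva and from 0 to 43.3 in the cornea. Some libraries held high counts of gland markers. Conjunctiva CR 5 had 14423 summed normalized counts of 7 meibomian gland markers, against 757 to 1573 in the other conjunctiva libraries. Cornea AL 1 had 9396 of lacrimal gland markers, of which 8380 were of *Scgb2b24*. How this RNA came into the libraries was not tested. The labels do not say whether libraries of a group are separate animals, whereas the study counts them as mice, and p-values measure the spread between these libraries.

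The genes lie on different chromosomes or far apart, in RefSeq coordinates of GRCm38.p6: *Pdgfra* at chr5:75151322-75198206, *Thy1* at chr9:44043384-44048579, *Dpt* at chr1:164796663-164824274, *Cd34* at chr1:194938821-194961292, *Vim* at chr2:13574311-13582826, *Fap* at chr2:62500936-62575509, *Fn1* at chr1:71585473-71653280, *Sparc* at chr11:55394159-55420080 and *Postn* at chr3:54359267-54391041. In GENCODE M21, exons of *Fn1* overlap the antisense gene *Apol7d*, exons of *Cd34* the antisense gene *Gm16897*, and exons of *Pdgfra* the antisense gene *Gm42802* as well as *Gm42803* and *Mir7025*. Reads in these overlaps cannot be told apart here, because the use of strand in counting was not stated.

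RefSeq promoter windows of 300 bases, 250 of them before the start, were at hand for 6 of the 10 genes. Shown are the stretches up to the nearest annotated exon for 3 genes. These genes lie on the plus strand and were lower in the conjunctiva at an unadjusted p under 0.05 (limma). Their RefSeq start also lay within 25 bases of a GENCODE start, and a long enough stretch remained before the exon. The stretches allow the DNA in front of genes that varied together to be compared. They are written 5′ to 3′ on the plus strand of GRCm38.p6, and capitals mark the letters TATAAA. The stretches are chr1:164796413-164796643 for *Dpt*, chr1:194938571-194938818 for *Cd34* and chr3:54360857-54361108 for the second start of *Postn*.
Dpt: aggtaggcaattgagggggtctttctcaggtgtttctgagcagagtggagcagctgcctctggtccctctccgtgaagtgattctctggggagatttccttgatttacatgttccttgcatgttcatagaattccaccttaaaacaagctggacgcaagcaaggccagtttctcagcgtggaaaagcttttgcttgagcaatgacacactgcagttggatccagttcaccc
Cd34: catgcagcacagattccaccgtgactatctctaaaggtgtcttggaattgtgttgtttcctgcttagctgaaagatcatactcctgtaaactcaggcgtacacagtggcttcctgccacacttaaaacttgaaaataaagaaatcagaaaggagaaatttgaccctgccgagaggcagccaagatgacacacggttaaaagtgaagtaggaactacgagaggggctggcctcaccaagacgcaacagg
Postn: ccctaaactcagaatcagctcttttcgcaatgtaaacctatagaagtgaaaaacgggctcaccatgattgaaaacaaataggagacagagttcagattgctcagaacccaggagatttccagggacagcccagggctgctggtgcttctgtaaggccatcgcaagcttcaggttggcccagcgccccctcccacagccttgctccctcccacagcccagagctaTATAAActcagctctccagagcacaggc

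Both strands of the whole windows were searched for 5 short motifs. The core promoter letters TATAAA were found for *Dpt*, *Postn* and *Vim*, in 3 of the 7 windows of these genes, and 13.6% of all 32851 windows hold it. In *Postn* it begins 26 bases before the RefSeq start and in *Vim* 32 bases before it, whereas in *Dpt* it begins 12 bases after it and so lies past the stretch shown. CCAAT was found for *Vim* and at the other start of *Postn*, against 37.4% of all windows. The GC box GGGCGG, the AP-1 motif TGANTCA and GGAATG, the letters bound by TEAD factors, were in none of the 7 windows and in 35.7%, 7.81% and 14.7% of all windows. These matches are a description of the letters and not of binding.

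*Pdgfra* encodes the PDGF receptor alpha, the receptor most used to mark fibroblasts. Its normalized counts in the conjunctiva were 633, 524, 613 and 675 in AL 1, 3, 4 and 5, and 369, 410, 539, 440 and 324 in CR 1 to 5. Only CR 3 reached into the AL range, above AL 3. The log2 difference, CR minus AL, was −0.57 ± 0.17 (SE, n = 4 and 5; limma, adjusted p = 0.208). *Pdgfrb* encodes the PDGF receptor beta, which fibroblasts share with pericytes. It stood at 438, 204, 442 and 402 under AL and at 243, 230, 319, 358 and 135 under CR. The diets overlapped because AL 3 lay below every CR library but CR 5. The log2 difference was −0.54 ± 0.29 (adjusted p = 0.601).

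The surface proteins encoded by *Thy1* and *Cd34* are used to sort fibroblasts, and *Cd34* also marks vascular endothelium. *Thy1* measured 619, 588, 764 and 668 normalized counts under AL against 524, 342, 659, 344 and 293 under CR. CR 3 alone of the CR libraries was above an AL library, and the log2 difference was −0.67 ± 0.22 (adjusted p = 0.265). T cells also carry *Thy1*, and 7 T cell markers together gave 49.4 to 107 normalized counts under AL and 49.9 to 88.8 under CR, with none of them at 0 throughout. *Cd34* measured 1540, 1711, 2428 and 1893 under AL and 1089, 1067, 2020, 1414 and 920 under CR. Again 4 of 5 CR libraries were below the lowest AL library while CR 3 was above 3 of the 4 AL libraries. The log2 difference was −0.58 ± 0.21 (adjusted p = 0.358), and 9 endothelial markers gave 1555 to 2255 summed counts under AL and 625 to 2411 under CR.

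*Dpt* encodes dermatopontin, a small protein that binds collagen fibrils and decorin. Its values were 2539, 1792, 2503 and 2586 under AL and 1169, 1319, 2020, 1840 and 1061 under CR. AL 3 was far below the other AL libraries and below CR 3 and CR 4, while the remaining CR libraries were under every AL value. *Dpt* had the largest negative log2 difference of the 10 genes, −0.70 ± 0.19 (adjusted p = 0.180). *Vim* encodes vimentin, the intermediate filament of mesenchymal cells, and stood at 5183, 3711, 5153 and 5213 under AL and 4350, 2963, 5068, 5767 and 3317 under CR. Its highest value was in a CR library, CR 4, and its log2 difference of −0.20 ± 0.19 was about the size of its error (adjusted p = 0.802).

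Of the activation genes, *Fap* encodes fibroblast activation protein, a surface protease of remodeling stroma. It drew the fewest reads of the 10, with 112, 41.5, 69.9 and 69.0 normalized counts under AL and 61.4, 97.1, 85.0, 62.5 and 43.2 under CR. The diets overlapped widely, and the log2 difference was −0.03 ± 0.35 (adjusted p = 0.982), with a 95% confidence interval from −0.77 to 0.70. The sign of that difference turned under quantile normalization (0.10), with a covariate for genes at 0 (0.08), without AL 1 (0.20) and without CR 5 (0.12).

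*Fn1* encodes fibronectin, the glycoprotein that links cells to collagen through integrins. Its conjunctival counts were 792, 722, 937 and 752 under AL and 478, 408, 628, 614 and 423 under CR. Every CR library was below every AL library. The log2 difference was −0.67 ± 0.17, and the adjusted p of 0.117 was the smallest of the 10. *Postn* encodes periostin, a matricellular protein of collagen-rich tissue that rises in wounds, and its counts were 2429, 2121, 2700 and 2287 under AL and 1556, 1440, 1895, 1731 and 979 under CR. Here too the diets did not overlap, with a log2 difference of −0.68 ± 0.17 (adjusted p = 0.131). *Sparc*, the gene of the collagen-binding protein osteonectin, had 5817, 5155, 6277 and 5787 under AL and 2890, 2750, 4934, 5851 and 3541 under CR. CR 4 was above 3 of the 4 AL libraries whereas the other CR libraries were below all of them, and the log2 difference was −0.59 ± 0.20 (adjusted p = 0.316).

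**Figure D1:**
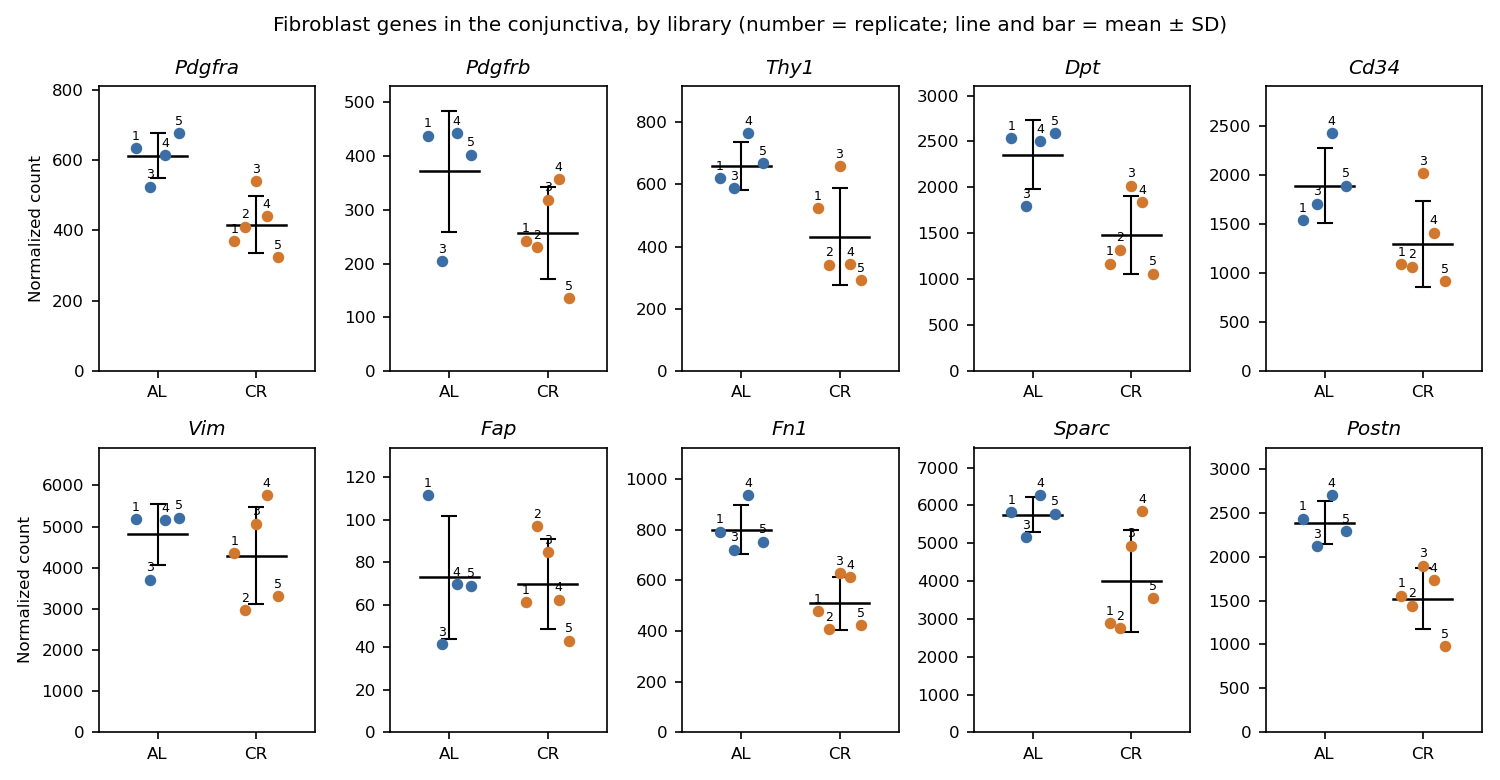
Normalized count (vertical axes, from 0) of each of the 10 genes in the conjunctiva libraries, AL in blue (n = 4) and CR in orange (n = 5). Points are libraries with their replicate numbers, and the lines and bars are the mean ± SD. *Fn1* and *Postn* do not overlap between diets, while *Vim* and *Fap* overlap widely.

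Counted over the list, 0 of 10 genes were called in the conjunctiva, where the same rule called 50 of 13929 genes (0.359%). All 10 of 10 had a log2 difference under 0, against 52.0% of all genes tested. At an unadjusted p under 0.05 (limma), 7 of 10 were lower, namely *Pdgfra*, *Thy1*, *Dpt*, *Cd34*, *Fn1*, *Sparc* and *Postn*, against 4.87% of all genes. Every CR library was below every AL library for 2 of 10, against 1.95% of all genes. Without conjunctiva CR 3, 5 of the 10 genes were called lower: *Fn1* (log2 −0.75, adjusted p = 0.0422), *Postn* (−0.77, 0.0404), *Dpt* (−0.82, 0.0365), *Cd34* (−0.75, 0.0428) and *Thy1* (−0.84, 0.0418). With each library weighted by how closely it followed its group, 3 of the 10 were called, and these were *Dpt*, *Fn1* and *Postn* with adjusted p from 0.0220 to 0.0254. Neither setting turned any of their directions. CR 3 held the highest CR value of each of the 5 genes, so leaving it out by itself lowers their CR means. Both settings also called more of all genes tested than the 50 of the main fit, with the counts given under the dependence on processing.

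Most of the 10 genes varied together among the conjunctiva libraries, while *Fap* followed the others less closely. Pearson's r of *Fap* with the others ran from 0.06 for *Sparc* to 0.63 for *Pdgfrb*. CR 5 held the lowest value of 6 genes and CR 2 of 3 genes, while AL 4 held the highest value of 6 genes. On the log2 scale the mean distance of the 10 genes from their own means was lowest in CR 5, at −0.68, and highest in AL 4, at 0.46. Across the 9 libraries Pearson's r between gene pairs had a median of 0.77 over 45 pairs, from 0.06 for *Fap* with *Sparc* to 0.97 for *Pdgfra* with *Dpt*. These values describe libraries that share 2 diets and their RNA make-up. In bulk RNA, fewer fibroblasts and less RNA of these genes per fibroblast cannot be told apart.

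**Figure D2:**
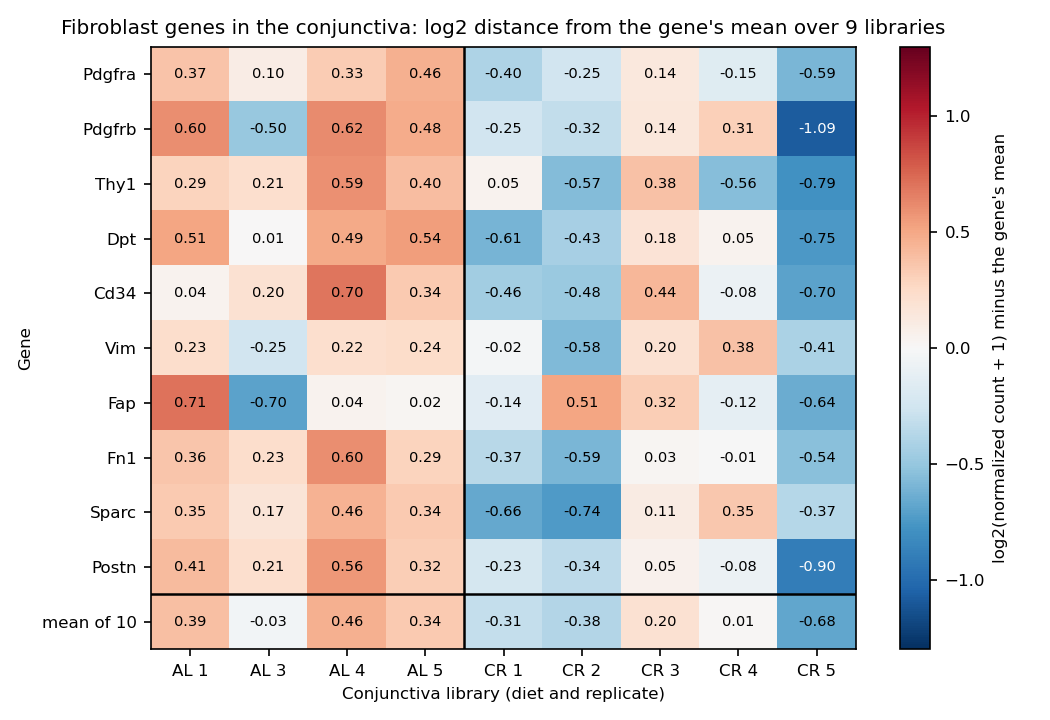
Distance of log2(normalized count + 1) from the gene's mean over the 9 conjunctiva libraries (colour and printed value), with 1 line per gene and, at the foot, the mean of the 10 genes. Columns are libraries, AL left and CR right of the black line. CR 5 is lowest (−0.68) and AL 4 highest (0.46) in the mean of the 10, and CR 3 (0.20) lies above AL 3 (−0.03).

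Other genes whose libraries followed the mean of the 10 most closely were *Csrp2*, *Cpxm1*, *Akap12*, *Pi16* and *Serpinf1*, with Pearson's r from 0.972 to 0.981 over 9 libraries. *Pi16* marks adventitial fibroblasts and *Serpinf1* encodes a secreted factor of stromal cells. With the diet means removed, r for these 5 genes was between 0.945 and 0.979. *Pi16* itself had 2407 ± 448 normalized counts under AL and 1388 ± 665 under CR (SD), and the log2 difference was −0.90 ± 0.30 (adjusted p = 0.349).

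Markers of other cells also varied among the conjunctiva libraries, some lists being lower and some higher under CR. Of 11 macrophage markers, 11 were lower under CR, 6 of them at an unadjusted p under 0.05 (limma) and 0 called, and their summed counts ran from 4329 to 5652 under AL and from 3541 to 3950 under CR. None of the macrophage markers was at 0 throughout. The lowest of the AL sums was in AL 3, the library that also held low *Pdgfrb*, *Dpt* and *Vim*. Of 7 mural cell markers 6 were tested and 4 were lower, with sums from 2039 to 3137 under AL and from 1261 to 4044 under CR. The 8 skeletal muscle markers summed to 13773 to 64597 under AL, lowest in AL 3, and 15783 to 138065 under CR, lowest in CR 5 and highest in CR 3. Within each diet, the libraries with the lowest and the highest muscle sum were those with the lowest and the highest mean of the 10 fibroblast genes. Meibomian gland markers (7 of 7 higher, 0 called) summed to 757 to 1059 under AL and 1079 to 14423 under CR. The part of these differences in tissue make-up in the fibroblast gene values was not tested. Without CR 5, the median log2 difference of the 10 genes was −0.51, and without AL 3 it was −0.68.

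**Figure D3:**
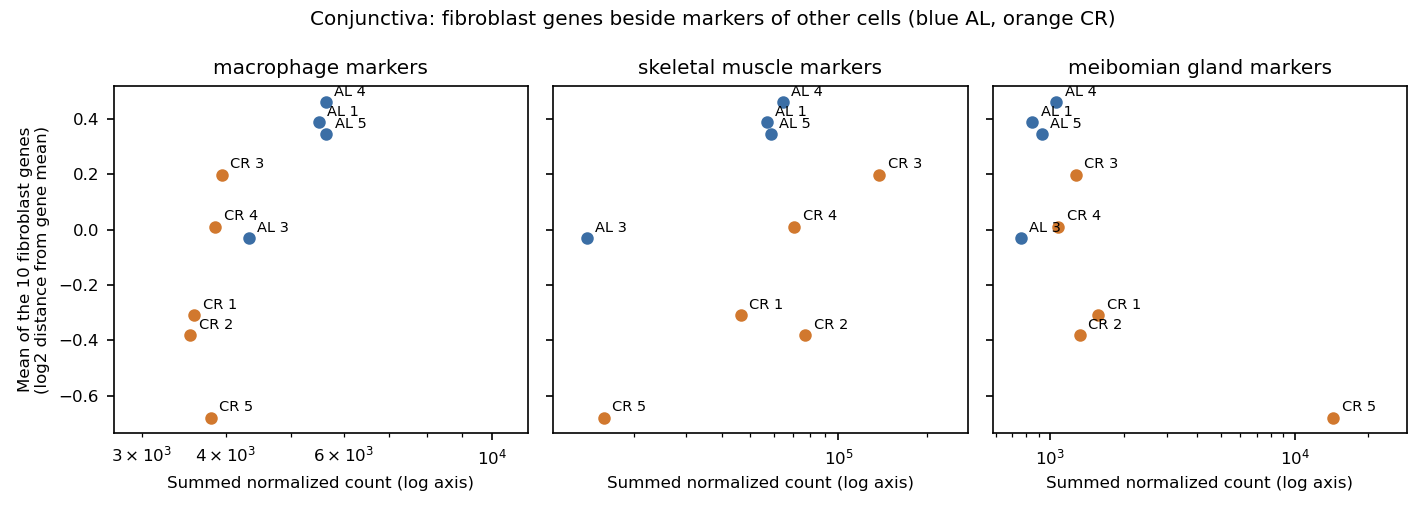
Mean log2 distance of the 10 fibroblast genes from their own means in each conjunctiva library (vertical axis) against the summed normalized count of the macrophage, skeletal muscle and meibomian gland markers (horizontal log axes). Each point is a library, AL in blue and CR in orange. Macrophage sums do not overlap between diets (4329 to 5652 against 3541 to 3950), and CR 5 stands apart in the meibomian sum (14423) and is low in the muscle sum (15783).

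Other fibroblast genes were read from a list of 24, of which 23 were tested in the conjunctiva. Of these 21 were lower under CR and 2 higher, 15 were lower at an unadjusted p under 0.05 (limma), and 2 fell by the full test. The list's median log2 difference was −0.61. Not all of the list shared the fall. The log2 differences of *Dcn* (−0.17 ± 0.21), *S100a4* (−0.14 ± 0.17), *Ddr2* (−0.08 ± 0.18) and *Prrx1* (−0.02 ± 0.25) were smaller than their SE. The 2 higher genes drew few reads. *Lrrc15* averaged 16.6 normalized counts under AL and 31.1 under CR (log2 0.90 ± 0.61), and *Gli1* averaged 11.9 and 20.8 (0.82 ± 0.65). The fibrillar collagen gene *Col3a1* fell from 6635 ± 1331 to 2298 ± 788 normalized counts (SD; log2 −1.57 ± 0.21, adjusted p = 0.00337), and *Col1a1* fell from 6458 ± 1153 to 2549 ± 744 (log2 −1.37 ± 0.20, adjusted p = 0.00592). For both collagens the CR libraries lay below all AL libraries. *Col6a3*, the gene of a microfibrillar collagen chain, had 901 ± 104 under AL and 450 ± 169 under CR without overlap and missed the threshold (log2 −1.08 ± 0.24, adjusted p = 0.0767), which it passed without CR 3 or CR 5. The list held 7 collagen genes, whose log2 differences ran from −1.57 for *Col3a1* to −0.54 for *Col6a1*, while the largest among the 10 genes was −0.70 for *Dpt*.

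Among the ligands of the 2 PDGF receptors, 3 of 4 were tested in the conjunctiva and none was called. *Pdgfc*, a ligand of the alpha receptor, had 64.0 normalized counts on average under AL and 22.8 under CR (log2 −1.50 ± 0.44, adjusted p = 0.208), and the diets did not overlap. *Pdgfa*, also a ligand of the alpha receptor, stood the opposite way, at 941 and 1268 (log2 0.44 ± 0.14, adjusted p = 0.244), and its diets did not overlap either. *Pdgfb* differed by −0.35 ± 0.42 (adjusted p = 0.843).

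The list of partners of fibronectin, periostin and SPARC held 21 integrins, syndecans and matricellular proteins. Of 20 tested in the conjunctiva, 13 were lower, 4 of them at an unadjusted p under 0.05 (limma), and 0 were called, with a median log2 difference of −0.19. *Tnc*, the gene of tenascin C, averaged 328 under AL and 141 under CR (log2 −1.49 ± 0.50, adjusted p = 0.351), and *Fstl1*, a relative of *Sparc*, averaged 4201 and 2954 (log2 −0.52 ± 0.19, adjusted p = 0.381). *Spock3*, which shares its domain type with *Sparc*, averaged 33.2 and 6.47 (adjusted p = 0.456). Myofibroblasts are the activated state that carries smooth muscle actin, and their contractile genes formed another list. Of 10 tested, 8 were lower, 0 at an unadjusted p under 0.05 and 0 called, and their median log2 difference was −0.10. *Acta2*, the smooth muscle actin gene, had 14557 ± 6722 under AL and 12377 ± 4113 under CR (SD; adjusted p = 0.912). *Myl9* and *Cald1* differed by −0.24 ± 0.41 and −0.17 ± 0.24 (adjusted p = 0.901 and 0.872). Smooth muscle of vessels carries these genes too. Of 8 intermediate filament and mesenchymal transition genes, 7 were tested, 4 were lower and 0 were called, with a median of −0.02. *Snai2* (log2 0.40 ± 0.19, adjusted p = 0.531), *Nes* (0.44 ± 0.31, 0.692) and *Snai1* (−0.54 ± 0.41, 0.728) were the 3 with the smallest p.

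In the corneal libraries *Pdgfrb* and *Fap* were near the limit of detection. *Pdgfrb* was at 0 in 5 of 10 libraries and *Fap* in 4 of 10, with at most 20 and 12 reads, and both were under the minimum mean of 10 normalized counts, which left 8 of 10 genes tested. The median log2 difference of the 8 was 0.21, with all 12278 genes tested at −0.03. The 9 corneal epithelium markers summed to 673759 to 836060 normalized counts, and the 6 keratocyte markers, genes of the stromal relatives of fibroblasts, to 35.8 to 184.

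*Sparc* had corneal counts of 512, 399, 598, 378 and 556 in AL 1 to 5 and of 775, 659, 606, 513 and 537 in CR 1, 2, 3, 4 and 7. Of the CR libraries 3 were above every AL library, and the log2 difference was 0.35 ± 0.16 (SE, n = 5 and 5; adjusted p = 0.248). *Fn1*, which epithelial cells also make, stood at 1311, 1210, 1487, 1356 and 1311 under AL and 1031, 1383, 1428, 1344 and 1219 under CR. The diets overlapped almost fully, with a log2 difference of −0.07 ± 0.11 (adjusted p = 0.792) and a 95% confidence interval from −0.30 to 0.17. This was the narrowest interval of the 8 genes tested in the cornea.

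*Dpt* was low in all corneal libraries but CR 7, at 20.9, 16.4, 40.4, 15.0 and 18.5 under AL and 36.1, 34.9, 20.5, 18.4 and 134 under CR. *Vim* followed a like course, with 49.5, 59.0, 104, 49.5 and 55.6 under AL and 96.4, 42.4, 104, 77.7 and 177 under CR. CR 7 was the highest library for both, and it also held the highest sum of conjunctival epithelium markers, 65460 against 26289 to 42646 in the other corneal libraries. Of these counts 48151 were of *Krt13*, and the other 8 markers gave 17309, against 4105 to 10632 in the other libraries. *Krt13* was plentiful in both tissues, with means of 27224 in AL corneas and 21937 in AL conjunctivas, each tissue on its own scale. The goblet cell gene *Muc5ac* was at most 6.57 in the CR corneas. Keratocyte markers also summed highest in CR 7, at 184 against 35.8 to 123. The sum of the other fibroblast genes was highest there too, at 4264. Its sum of macrophage markers was the highest as well, at 2121, but 1914 of these counts were of *Itgam*, an integrin gene of several myeloid cells. The other 10 macrophage markers gave 207 counts in CR 7, the lowest sum of the corneal libraries, against 247 to 429 in the others. Whether RNA of neighboring conjunctiva or of the corneal stroma had a part in these values was not tested. The log2 differences were 0.78 ± 0.52 for *Dpt* (adjusted p = 0.440) and 0.56 ± 0.33 for *Vim* (adjusted p = 0.392), and without CR 7 they were 0.32 and 0.31.

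The remaining corneal values overlapped between diets. *Pdgfra* ran from 28.4 to 90.6 under AL and from 41.8 to 74.5 under CR, and its log2 difference was 0.08 ± 0.34 (adjusted p = 0.929). *Postn* ran from 46.2 to 87.3 and from 41.9 to 86.4 (−0.13 ± 0.29, adjusted p = 0.846). *Thy1* had between 2 and 33 reads a library and differed by −0.18 ± 0.73 (adjusted p = 0.923). *Cd34* was at 0 in AL 1 and between 11.3 and 39.3 elsewhere. Its log2 difference of 0.82 ± 0.83 (adjusted p = 0.634) rested on that library, since it was −0.10 without AL 1. The directions of *Pdgfra*, *Thy1*, *Fn1* and *Postn* also turned when some single library was left out, *Fn1* without CR 1 (0.01) and *Postn* without CR 4 (0.0035).

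**Figure D4:**
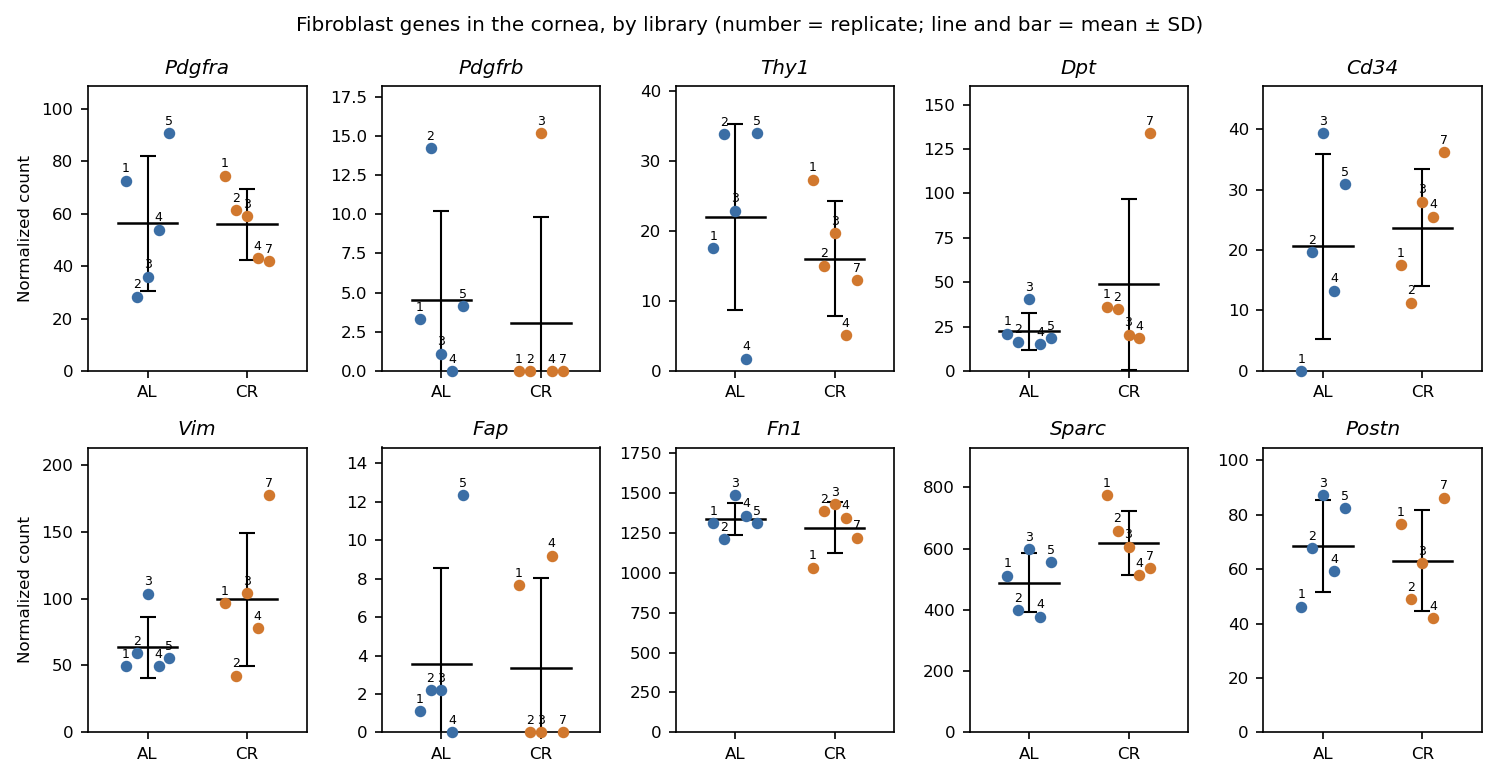
Normalized count (vertical axes, from 0) of each of the 10 genes in the cornea libraries, AL in blue and CR in orange (n = 5 each). Points are libraries with their replicate numbers, and the lines and bars are the mean ± SD. The diets overlap for all 10 genes, and CR 7 stands apart in *Dpt* (134) and *Vim* (177).

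Over the list, 0 of 8 genes were called in the cornea, where 150 of 12278 genes were (1.22%). Of the 8, 3 had a log2 difference under 0 (*Thy1*, *Fn1* and *Postn*), against 53.1% of all genes. *Sparc* alone had an unadjusted p under 0.05 (limma), 1 of 8 against 18.1% of all genes, and it lost that without AL 2, AL 4, CR 1 or CR 3. For 0 of 8 genes did the diets stay apart, against 3.97% of all genes. Of 16 other fibroblast genes tested, 8 were lower and 8 higher and 0 were called, with *Col1a1* at 178 and 97.3 normalized counts under AL and CR (log2 −1.17 ± 0.53, adjusted p = 0.275), *Ddr2*, a collagen receptor gene, at 166 and 248 (0.72 ± 0.29, adjusted p = 0.214) and *S100a4* at 150 and 105 (−0.54 ± 0.25, adjusted p = 0.267). Of 13 partner genes tested, *Ctgf*, a matricellular growth factor gene that is also called *Ccn2*, rose under CR from 66.6 ± 25.1 to 179 ± 88.0 (SD; log2 1.38 ± 0.33, limma, adjusted p = 0.0445) without overlap. That call was near the threshold and was kept in 9 of 20 alternatives. It was lost without AL 1, AL 2, AL 3, AL 5, CR 3, CR 4 or CR 7, with no filter, with voom, with the covariate for genes at 0 and with the replicate block. The log2 difference ran from 1.15 to 1.55 and the adjusted p (limma) from 0.0221 to 0.167 over the 20. The other partners with the smallest p were *Sdc4* (log2 0.35 ± 0.12, adjusted p = 0.137) and *Itgb1* (0.33 ± 0.13, adjusted p = 0.188), both receptors that bind fibronectin.

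The PDGF ligands tested in the cornea were *Pdgfa*, at 324 and 437 (log2 0.40 ± 0.17, adjusted p = 0.235), and *Pdgfb* (0.42 ± 0.75, adjusted p = 0.800), while *Pdgfd* was at 0 in every corneal library. Contractile genes were seldom detected, with 3 of 10 tested and *Des* at 0 throughout. *Acta2* stood at 74.6 and 31.7 (log2 −1.84 ± 0.67, adjusted p = 0.180) and *Tpm2* at 1144 and 896 (−0.36 ± 0.14, adjusted p = 0.199), and neither passed. Genes whose libraries were most like the mean of the 8 fibroblast genes were *Six3*, *Ltbp1*, *Gtf2a2*, *Arl1* and *Apaf1* (Pearson's r from 0.884 to 0.925 over 10 libraries). Between pairs of the 8 genes the median r was 0.13 over 28 pairs.

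The diet difference was compared between the tissues for the 8 genes tested in both, as the conjunctival log2 difference minus the corneal one. *Sparc* gave the smallest p, −0.94 ± 0.26 (adjusted p = 0.301), from a corneal difference of 0.35 and a conjunctival one of −0.59. For *Fn1* the value was −0.60 ± 0.20 (adjusted p = 0.436), and for *Dpt* it was −1.48 ± 0.56 (adjusted p = 0.515). None of the 8 passed at an adjusted p under 0.05, where 2 of 11929 genes did (0.0168%). All 3 named here had an unadjusted p under 0.05 (limma), 3 of 8 against 3.7% of all genes with a lower value in the conjunctiva. Cornea and conjunctiva libraries share titles, and the methods state that several tissues were taken from a mouse, but not that a shared title is a shared mouse. When the difference between tissues was taken within each of the 8 shared titles, *Fn1* alone of these 3 kept an unadjusted p under 0.05 (−0.52, limma, adjusted p = 0.859). *Sparc* stood at −0.89 (adjusted p = 0.866) and *Dpt* at −0.83 (adjusted p = 0.923) in that fit, both without it. The other 5 genes had values from −1.40 for *Cd34* to −0.49 for *Thy1*, with 95% confidence intervals that included 0.

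**Figure D5:**
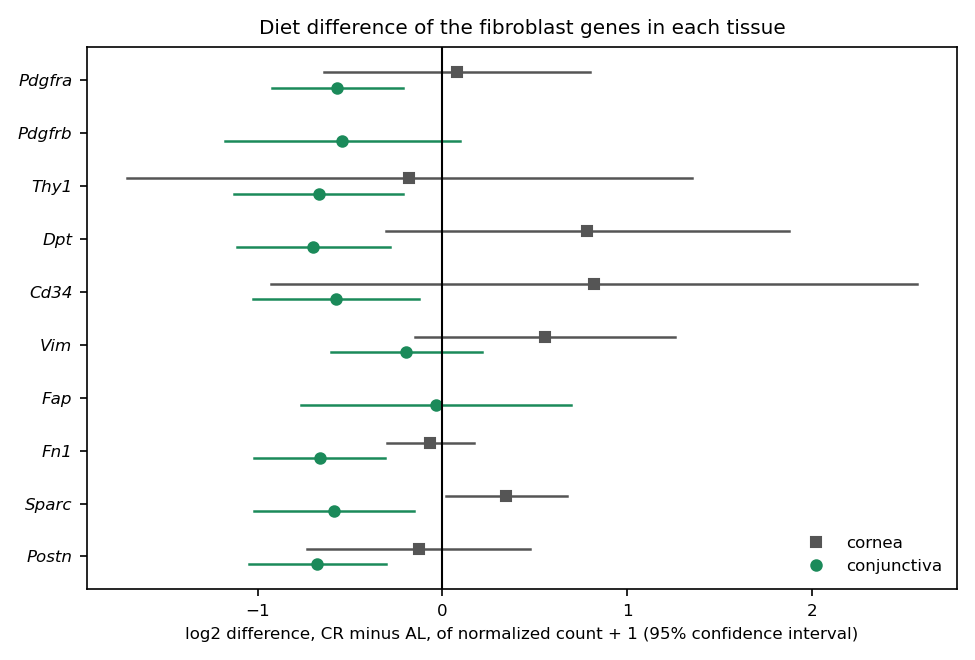
Log2 difference, CR minus AL, of normalized count + 1 for each gene (points) with its 95% confidence interval (lines), cornea as grey squares and conjunctiva as green circles. *Pdgfrb* and *Fap* had too few corneal reads to be tested. Conjunctival values run from −0.70 (*Dpt*) to −0.03 (*Fap*), and corneal values from −0.18 (*Thy1*) to 0.82 (*Cd34*).

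Levels in the tissues were set side by side as reads per 1000000 counted reads, because the authors scaled each tissue on its own, and they are a description with no test. *Fn1* was the exception among the 10 in being higher in the cornea, at 115 ± 10.3 on that scale against 67.8 ± 8.80 in the conjunctiva under AL, and at 111 ± 15.1 against 40.8 ± 9.60 under CR (SD). The ratio of cornea to conjunctiva for *Fn1* was 1.70 under AL and 2.73 under CR. *Dpt* stood at 1.93 ± 0.938 in AL corneas and 200 ± 33.9 in AL conjunctivas, a ratio of 103 in favor of the conjunctiva. *Cd34* and *Vim* were 89.3 and 74.2 times as high in the AL conjunctiva, and *Postn* and *Thy1* 34.1 and 29.4 times. No ratio is read for *Pdgfrb* and *Fap*, since their corneal means rested on few reads and moved with single libraries. *Pdgfrb* ran from 0 to 1.21 in AL corneas and from 17.0 to 37.8 in AL conjunctivas, and *Fap* from 0 to 1.07 and from 3.45 to 9.63. *Sparc* and *Pdgfra* were 11.6 and 10.7 times as high there. Under CR the ratios of *Sparc* and *Pdgfra* were 5.90 and 6.85, and that of *Dpt* was 28.5, or 49.3 without cornea CR 7.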

How the data were processed

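RNA of the corneal epithelium and the conjunctiva was sequenced in 19 libraries. The authors trimmed the reads with cutadapt, aligned them with STAR, counted them per gene with HTSeq and scaled them with DESeq2 size factors, tissue by tissue. The study's methods name build mm10 and the submitters' processing notes GRCm39. Tool versions were not given in the sources used here, and the labels and the methods name different library kits, so strand use is not settled. The deposited values are log2(normalized count + 1). They were turned back into normalized counts and whole reads (100% of values within 0.01 of a whole read).

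Groups were taken from the labels. Diets were compared within each tissue with limma 3.58.1 (statmod 1.5.0, R 4.3.3; trend and robust moderation) on log2(normalized count + 1) for genes whose mean reached 10 normalized counts. Called genes had a Benjamini-Hochberg adjusted p under 0.05, over all genes tested, and a fold over 1.5. Differences of low genes depend on the pseudocount on this scale and can be understated or, with a library at 0, overstated. For corneal *Cd34* the log2 difference was 0.82 with a pseudocount of 1, 1.01 with 0.5 and 0.28 with 10. Differences between tissues used Satterthwaite degrees of freedom. Tables held 24557 rows, of which 5 repeated a symbol with the same values and were dropped, and 483 had no gene identifier. Every deposited value column was matched to a library, so 0 columns were left out. Floors cover counting error only.

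The members and gene lists were chosen with earlier results of these data known. Named besides the 10 members were, per list and tissue, up to 3 genes with the smallest p, and in each tissue the 5 genes most like the members' mean. Other fibroblast genes that differed by less than their SE or were higher in the conjunctiva were named as well. Marker lists were mural cells, endothelium, macrophages, T cells, Schwann cells and nerve, melanocytes, keratocytes, corneal epithelium, conjunctival epithelium with goblet cells, fat, skeletal muscle, lacrimal gland and meibomian gland. Alternatives were pseudocounts of 0.5 and 10, no filter or one at a mean of 50, scaling to 1000000 counted reads, quantile normalization, array weights, voom on the recovered reads, a covariate for the share of genes at 0, the replicate number as a block, and leaving out each library. The fit was tested on simulated counts with 200 changed genes. These had means of at least 50 and changes larger than those of the members. The test therefore does not cover scarce genes or changes of the members' size. Tables and sequences were handled in Python 3.11.15 (pandas 2.3.3, numpy 2.4.6, matplotlib 3.10.9), with RefSeq and GENCODE M21 on GRCm38.p6, whose coordinates are not those of GRCm39.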

Additional observations from a re-analysis of the deposited data

Results flagged for a closer look

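Among the 40 groups of libraries formed by 10 genes, 2 tissues and 2 diets, 8 held a library far from the others by Dixon's criterion at 95%, which chance gives in about 1 of 20 groups. In the cornea, *Pdgfrb* in CR 3 was at 15.2 normalized counts with the other CR libraries at 0, *Fap* in AL 5 at 12.4 with the others at 0 to 2.18, *Dpt* in AL 3 at 40.4 with the others at 15.0 to 20.9, and *Vim* in AL 3 at 104 with the others at 49.5 to 59.0. *Dpt* in cornea CR 7 was at 134, with the other CR libraries at 18.4 to 36.1. In the conjunctiva all 3 such values were low and lay in AL 3: *Pdgfrb* at 204 (others 402 to 442), *Dpt* at 1792 (others 2503 to 2586) and *Vim* at 3711 (others 5153 to 5213).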

How the results depend on the processing

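Alternatives left the median log2 difference of the 10 genes in the conjunctiva between −0.67 and −0.46, and between −0.71 and −0.51 without each library in turn, and no result turned its direction while called. No gene of the list was called there under any alternative but array weights (3 genes) and the removal of CR 3 (range over removals 0 to 5). Counts over all genes were less stable. In the conjunctiva 50 calls became 149 with array weights and 10 with the replicate block, and 26 (without CR 2) to 127 (without CR 3) when libraries were left out. In the cornea 150 became 705 with array weights, 99 with voom, 62 with a covariate for genes at 0 and 46 with the replicate block, and 53 (without AL 5) to 536 (without AL 4) without each library. The count of genes that differed between tissues, 2, became 1 after scaling to 1000000 counted reads, 18 with array weights, 0 with that covariate, 1 with the replicate block and 0 with the replicate block across tissues by shared title, and 0 (without conjunctiva AL 1) to 7 (without cornea CR 1). Fibroblast genes at an unadjusted p under 0.05 (limma) in the cornea, 1, became 0 with quantile normalization and with array weights, and 0 to 2 without each library. Ratios between tissues without each corneal library, chosen after seeing the data, moved by over 1.5 times for *Dpt* under CR and for *Pdgfrb* and *Fap*. The causes were not tested. Same-numbered libraries did not deviate together (r from −0.297 to 0.288 among corneal numbers from −0.062 to 0.053 among conjunctival ones and from −0.420 to 0.144 between tissues for shared titles), so the numbers were not taken to pair them. Of the called genes named, *Col1a1* and *Col3a1* in the conjunctiva were called in 18 of 19 alternatives, and with the replicate block their adjusted p (limma) was 0.0929 and 0.0665. With 4 or 5 libraries a group, and with *Thy1* at 2 to 33 reads and *Cd34* at 0 to 39 in the cornea, small differences of the scarce genes were not detectable.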

Other observations

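Marker genes of cell types outside the fibroblast lists stood as follows in these libraries. The complement gene *C1qa*, a macrophage gene, fell under CR in the cornea from 61.1 ± 15.5 to 20.5 ± 8.32 normalized counts (SD, n = 5 and 5; limma, adjusted p = 0.0467), and in the conjunctiva it was at 1025 ± 117 and 665 ± 112 (adjusted p = 0.103), with no overlap between diets in either tissue. The corneal call of *C1qa* was kept in 7 of 19 alternatives and lost without AL 1, AL 2, AL 3, AL 5, CR 2, CR 3 or CR 7, with no filter, quantile normalization, voom, the covariate for genes at 0 and the replicate block, with adjusted p (limma) from 0.0223 to 0.193. Of 6 macrophage genes tested in the cornea, 5 had a log2 difference under 0. The other C1q genes did not differ as *C1qa* did, with *C1qb* at 23.9 and 21.5 and *C1qc* at 20.7 and 22.6 (limma, adjusted p = 0.836 and 0.821). *Itgam* was higher (log2 0.17 ± 0.27). *Dgat2*, an enzyme of triglyceride synthesis counted among the meibomian markers, was higher under CR without overlap in both tissues, at 504 and 699 in the cornea (adjusted p = 0.0785) and at 539 and 1017 in the conjunctiva (adjusted p = 0.0937). Of the remaining marker lists, Schwann cell and nerve genes (6 tested, 5 lower), melanocyte genes (2 tested, 2 lower), keratocyte genes (6 tested, 5 lower), corneal epithelium genes (9 tested, 7 higher), goblet and conjunctival epithelium genes (9 tested, 5 lower), fat cell genes (4 tested, 4 higher) and skeletal muscle genes (8 tested, 8 higher) had 0 genes called in the conjunctiva, as did endothelial genes (9 tested, 7 lower) and T cell genes (3 tested, 1 lower). In the cornea 1 macrophage gene (*C1qa*) and 1 lacrimal gland gene were called and 0 genes of the other marker lists. The lacrimal gene was *Scgb2b24*, whose mean of 1759 normalized counts under AL and 0.438 under CR included 8380 in AL 1, and whose call was kept in 8 of 20 alternatives, though also without AL 1. In the conjunctiva, lacrimal gland genes were too low to test, with 5 of 10 at 0 in every library.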
